A study of Mus musculus with 7 samples.

Results

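The 31 genes described here encode glucose transporters, glycolytic enzymes and other products known to respond to low oxygen, and they were followed in mouse embryonic stem cells (ESCs) that lack a distal Sox2 super-enhancer (SE). They were chosen by name, with earlier results of these data known, and all 31 names were found among the 37310 genes of GENCODE M1 on mm9. They comprise 2 glucose transporters, 15 glycolytic enzymes including lactate dehydrogenase, and 14 other hypoxia targets. RNA-seq of polyA+ RNA was performed on 4 clones of F123, an ESC line whose cells carry 1 genome of the CAST strain and 1 of the 129 strain, with 1 library for each. WT carries the SE on both alleles. The monoallelic clones have lost 1 copy, that of the 129 allele in CAST+/129- and that of the CAST allele in CAST-/129+, and the biallelic clone CAST-/129- has lost both. F123 cells were also used for ChIP-seq of H3K4me3, a mark of active promoters, and of H3K27ac, a mark of active promoters and enhancers, and J1 cells, another mouse ESC line, for H3K27ac. Each of these 3 libraries came from cells without a deletion. Every genotype is a single clone and a single library, so that clone, culture and genotype cannot be told apart, and no difference has a replicate check or a test.

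Glycolysis splits glucose into pyruvate through a chain of cytosolic enzymes and yields a small amount of ATP without oxygen. Lactate dehydrogenase then turns pyruvate into lactate. When oxygen is scarce, the prolyl hydroxylases of the Egln family no longer mark the alpha subunits of the hypoxia-inducible factors (HIFs) for destruction, and HIFs bind short DNA motifs near genes of glucose uptake, glycolysis, blood vessel growth and mitochondrial turnover. Mouse ESCs are known for a high rate of glycolysis.

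The deposited files hold aligned positions in which identical alignments are collapsed to 1 line with a count of reads. Distinct alignments on exons of genes numbered 24891864 in WT, 12486398 in CAST+/129-, 6078945 in CAST-/129+ and 5847451 in CAST-/129-. FPKM is the number of distinct alignments per kilobase of a gene's exons and per 1000000 distinct alignments on genes, and intervals are exact 95% intervals that cover counting error only. Sox2, the gene under the SE, was at 174, 81.8, 72.8 and 7.38 FPKM in the same order of libraries. Markers of other cells moved with the clones. The summed level of 9 fibroblast markers was 16.8 FPKM in WT, 69.7 and 72.0 in the monoallelic clones and 382 in CAST-/129-. All 9 were above WT beyond counting error in CAST-/129-, against 31.1% of all genes with a mean of at least 1 FPKM. Thy1, at 11.4 FPKM the highest of them in WT, was lower in the monoallelic clones, at 49.7% and 54.8% of WT. Col1a1 had 567 distinct alignments in WT, while Lum had 0 there, 5 and 2 in the monoallelic clones and 104 in CAST-/129-. The summed level of 6 trophectoderm markers, mostly Krt8 and Krt18, was 20.5 FPKM in WT and 297, 529 and 525 in the clones. The sum of 6 primitive endoderm markers went the other way, with 111 FPKM in WT and 22.3, 61.05 and 40.1 in the clones. All 6 were below WT beyond counting error in CAST+/129-, against 3 in CAST-/129+ and 4 in CAST-/129-. Among all genes with a mean of at least 1 FPKM, 39.9%, 40.2% and 41.7% were so in the same order of clones. Foxa2 was at 665% of WT in CAST-/129+ and 841% in CAST-/129-. The 8 ESC markers summed to 1556 FPKM in WT and 922 in CAST-/129-, and Pou5f1 (Oct4) was between 131 and 206 FPKM in all libraries. In CAST-/129-, Sox2 was at 4.23% of WT, Klf4 at 6.88%, Esrrb at 23.7%, Zfp42 at 28.2% and Nanog at 29.9%. Tdgf1 was at 73.6% there, Pou5f1 at 86.6% and Dppa5a, the most abundant of the 8, at 104%. By reads before collapsing, these 3 genes were lower, at 61.5%, 61.7% and 66.8% of WT in CAST-/129-. In CAST-/129+, Pou5f1 changed side with the unit, from 110% of WT to 79.0% by reads. Fewer cells of a type and less RNA per cell cannot be told apart in such bulk libraries, and the part of these cells in the values below was not tested.

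Most of the 31 genes were higher in the clones than in WT, although few by much. An increase or decrease beyond counting error means that the 95% interval of the ratio to WT excludes 100%. In CAST+/129-, 21 of the 31 genes were above WT in this sense and 8 below, against 34.8% above and 39.9% below among all 13818 genes with a mean of at least 1 FPKM over the 4 libraries. In CAST-/129+, 22 were above and 6 below, against 30.9% and 40.2% of all genes. In CAST-/129-, 18 were above and 12 below, against 31.1% and 41.7%. Of the 1635 genes with a mean of at least 50 FPKM, 1139, 1075 and 851 were above WT in the same order of clones. Below it were 250, 306 and 504. Most abundant genes were thus also above WT. Because the 31 genes were chosen with earlier results of these data known, these shares are descriptions and no test of the set. All 31 genes entered this set, but Ankrd37 and Adm were under 1 FPKM in WT and entered it through their levels in the clones.

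The median of the glycolytic enzymes lay above WT in all clones, and single enzymes such as Pfkp and Ldhb differed widely between clones. On the scale of log2 of FPKM plus a pseudo-value of 4, the median ratio of the 15 enzymes to WT was 0.57 in CAST+/129-, 0.54 in CAST-/129+ and 0.54 in CAST-/129-. By reads before collapsing, these medians were 0.52, 0.46 and 0.355. The 14 other hypoxia targets had medians of 0.34, 0.27 and 0.13. The medians of all 13818 genes were -0.03, -0.07 and -0.08, and those of the 1635 genes with a mean of at least 50 FPKM were 0.25, 0.28 and 0.13. The abundant genes as a whole were therefore also above WT on this scale. The plot of each gene as a percentage of WT shows the enzymes mostly above 100%, and the other targets between 16.0% for Vegfa and 2799% for Ankrd37.

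**Figure D1:**
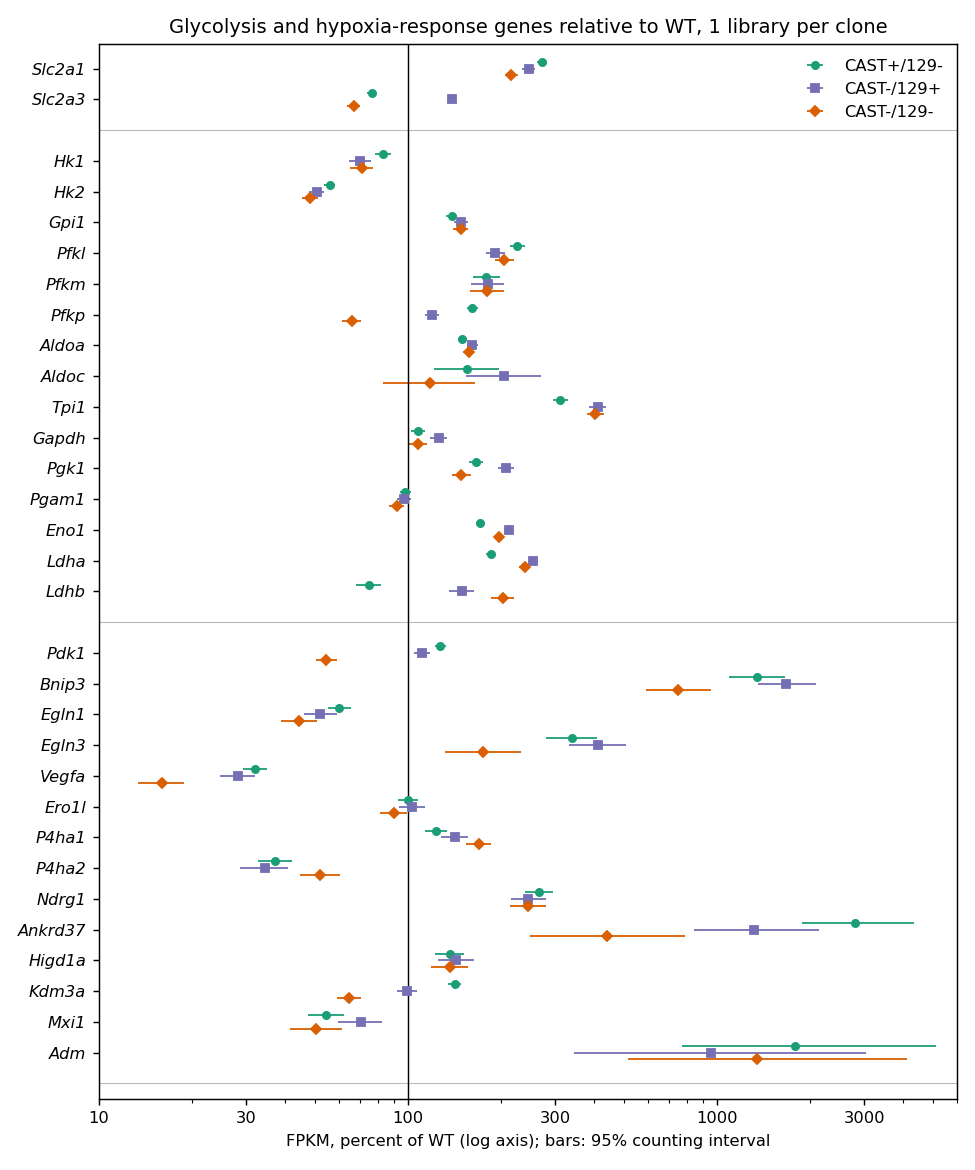
FPKM of each of the 31 genes in the 3 deletion clones as a percentage of WT, on a log axis, with 1 library per clone. Points are single libraries and bars are 95% counting intervals. Bnip3, Ankrd37 and Adm lie farthest above WT, Vegfa lies lowest, and Slc2a3, Pfkp, Ldhb, Pdk1 and Kdm3a lie on both sides of the line at 100%.

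Large changes were few. With a threshold of 3-fold on the same log2 scale, Bnip3 and Ankrd37 were up in CAST+/129-, and Tpi1 and Bnip3 were up in CAST-/129+ and in CAST-/129-. Only Vegfa was down by 3-fold, and only in CAST-/129-. These 2 genes up per clone stand beside 0.731% of all genes in CAST+/129-, 1.08% in CAST-/129+ and 1.85% in CAST-/129-, and the genes down beside 0.695%, 0.753% and 1.17%. At 2-fold, 5, 8 and 4 of the 31 genes were up, against 2.06%, 2.78% and 4.55% of all genes, and Vegfa alone was down in each clone, against 2.90%, 3.48% and 4.38%. The 3 comparisons share the WT library, so that a value that is low or high in WT by chance appears in all of them.

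Glucose enters ESCs through the transporters Slc2a1 (GLUT1) and Slc2a3 (GLUT3), and their balance differed between WT and the clones. Slc2a1 (chromosome 4, 118781316 to 118809935) was at 63.0 FPKM (61.2 to 64.9) in WT, 171 (167 to 176) in CAST+/129-, 155 (149 to 161) in CAST-/129+ and, in the biallelic clone, 136 (131 to 142). All clones were above WT without overlap of the intervals, at 272%, 246% and 217% of it. Slc2a3 was at 71.0 FPKM in WT, 54.4 in CAST+/129-, 98.6 in CAST-/129+ and 47.5 in CAST-/129-. It was thus higher than WT in CAST-/129+ and lower in the other clones, with intervals that did not overlap. Slc2a1 made up 47.0% of the summed FPKM of both transporters in WT and 75.9%, 61.2% and 74.2% in the clones.

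Of the 15 enzymes, 9 were above WT in all clones, namely Gpi1, Pfkl, Pfkm, Aldoa, Tpi1, Gapdh, Pgk1, Eno1 and Ldha, and 2, Hk1 and Hk2, were below WT in all clones. Among all 13818 genes, a set not matched for abundance, 19.0% were above WT in all clones and 25.2% below. With near-identical copies of the genes added, as described for Gapdh, 8 enzymes were above WT in all clones and 4 below, since Gapdh and Pgam1 were then below. Hexokinases trap glucose in the cell by adding a phosphate. Hk2, the inducible isozyme, was at 75.2 FPKM (73.9 to 76.7) in WT, 42.1 (40.6 to 43.6) in CAST+/129-, 38.2 (36.2 to 40.3) in CAST-/129+ and, in the biallelic clone, 36.3 (34.3 to 38.4). The clones lay close together, at 55.9%, 50.8% and 48.2% of WT. Hk1, the widely expressed isozyme, was at 17.5, 14.6, 12.3 and 12.4 FPKM. Summed hexokinase FPKM therefore went from 92.8 in WT to 56.7, 50.5 and 48.7, while the share of Hk2 in it went from 81.1% to between 74.2% and 75.7%.

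The steps after hexokinase were mostly higher in the clones. Gpi1, which turns glucose phosphate into fructose phosphate, was at 49.0 FPKM in WT and at 67.9, 72.7 and 72.6 in the clones. By column 5 of the files, which gives the reads before collapsing, it was at only 116%, 111% and 112% of WT, against 139%, 148% and 148% by distinct alignments. Phosphofructokinase commits sugar to glycolysis and is built from Pfkl, Pfkm and Pfkp. Pfkl, the liver type, was at 22.2 FPKM in WT and at 50.2, 42.6 and 45.6 in the clones. Pfkm, the muscle type, was at 11.2 FPKM in WT and at 20.2, 20.4 and 20.3 in the clones. Both were near 2 times WT in every clone, with 192% to 226% for Pfkl and 180% to 181% for Pfkm. Pfkp, the platelet type, went another way, with 25.2 FPKM (24.6 to 25.8) in WT, 40.8 (39.6 to 41.9) in CAST+/129-, 30.2 (28.8 to 31.7) in CAST-/129+ and, in the biallelic clone, 16.6 (15.6 to 17.7). The biallelic clone was the lowest of the 4 libraries, and its share of Pfkp in summed phosphofructokinase FPKM was 20.2% against 43.0% in WT. The value of Pfkp in CAST-/129+ changed side with the unit, from 120% of WT to 96.5% by reads.

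**Figure D2:**
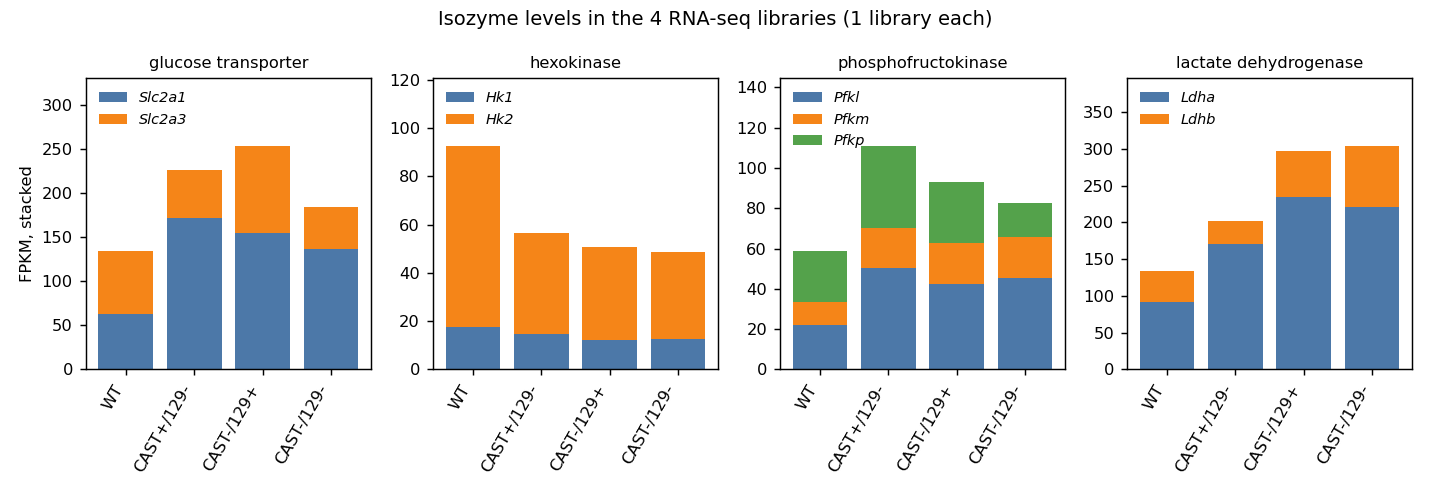
FPKM of the isozymes of 4 families in the 4 RNA-seq libraries, stacked, with 1 library per genotype and no error bars. Slc2a1 fills 47.0% of the transporter bar in WT and 61.2% to 75.9% in the clones, the hexokinase bars fall from 92.8 to 48.7 FPKM, and Pfkp is smallest in CAST-/129-.

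Aldolase splits the bisphosphate of fructose into triose phosphates. Aldoa made up 98.0% to 98.8% of the summed FPKM of Aldoa and Aldoc in every library. It was at 126 FPKM in WT, 189 in CAST+/129-, 204 in CAST-/129+ and 199 in the biallelic clone, or 150%, 162% and 158% of WT. By reads it was at 144%, 132% and 128% of WT. Aldoc, the brain type, was scarce, at 1.995 FPKM in WT and 3.09, 4.08 and 2.36 in the clones, and its difference from WT in CAST-/129- was within counting error.

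Tpi1, triosephosphate isomerase, differed most from WT among the enzymes. Tpi1 (chromosome 6, 124760604 to 124764314, minus strand) was at 35.0 FPKM (33.4 to 36.6) in WT, 109 (105 to 113) in CAST+/129-, 144 (138 to 151) in CAST-/129+ and, in the biallelic clone, 141 (135 to 148). WT stood apart from all clones, and CAST+/129- from the clones that lack the CAST copy. The ratios were 312%, 412% and 404% of WT by distinct alignments and 378%, 470% and 486% by reads. No alignment was counted at the near-identical copy of Tpi1 in the genome.

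Several enzymes of the later steps of the pathway have near-identical copies elsewhere in the genome, and these take up alignments. BLAST of the members' transcripts found 68 copies of at least 95% identity for 10 of the 31 genes, 50 of them for Gapdh. On the exons of Gapdh itself, the glyceraldehyde phosphate dehydrogenase, 74.4 FPKM were counted in WT and 80.4, 93.6 and 80.1 in the clones. These were 5.06% of the alignments in WT, and the other 94.9% lay on the copies, against 94.0%, 92.7% and 93.0% in the clones. With the copies added, Gapdh stood at 1469 FPKM in WT and 1336, 1280 and 1140 in the clones, or 91.0%, 87.1% and 77.6% of WT. The direction of Gapdh in all clones therefore depended on where its alignments were counted. Such copies can hardly be told apart by their sequence. At a pair of Gapdh copies on chromosomes 11 and 2 that are 99.8% identical, 16.3% to 32.1% of the alignments of either copy had a match at the same offset and of the same length at the other. In WT, 525 of the 1333 matches also had equal read counts. Such matches cannot tell 1 read listed at both copies from different fragments at the same offset.

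Pgk1 and Eno1 kept their direction with the copies added, while the side of Pgam1 depended on the copies and on the unit. Pgk1, phosphoglycerate kinase, was at 54.9 FPKM in WT, 91.2 in CAST+/129-, 114 in CAST-/129+ and 81.8 in CAST-/129-, and at 160%, 191% and 132% of WT with its 4 copies, which held 64.5% of the alignments in WT. Eno1, enolase, was at 61.5, 106, 131 and 122 FPKM, which were 172%, 212% and 198% of WT, and 157%, 184% and 173% with its 3 copies. Pgam1, phosphoglycerate mutase, was the enzyme nearest to WT in the monoallelic clones. It was at 146 FPKM in WT and at 143, 142 and 135 in the clones, within counting error of WT in both monoallelic clones. With its 2 copies it was below WT in all clones, at 96.7%, 92.2% and 85.2%. By reads on its own exons, its ratios moved to 103% to 108% of WT. Each of these 3 genes kept at most 41.6% of its alignments on its own exons.

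**Figure D3:**
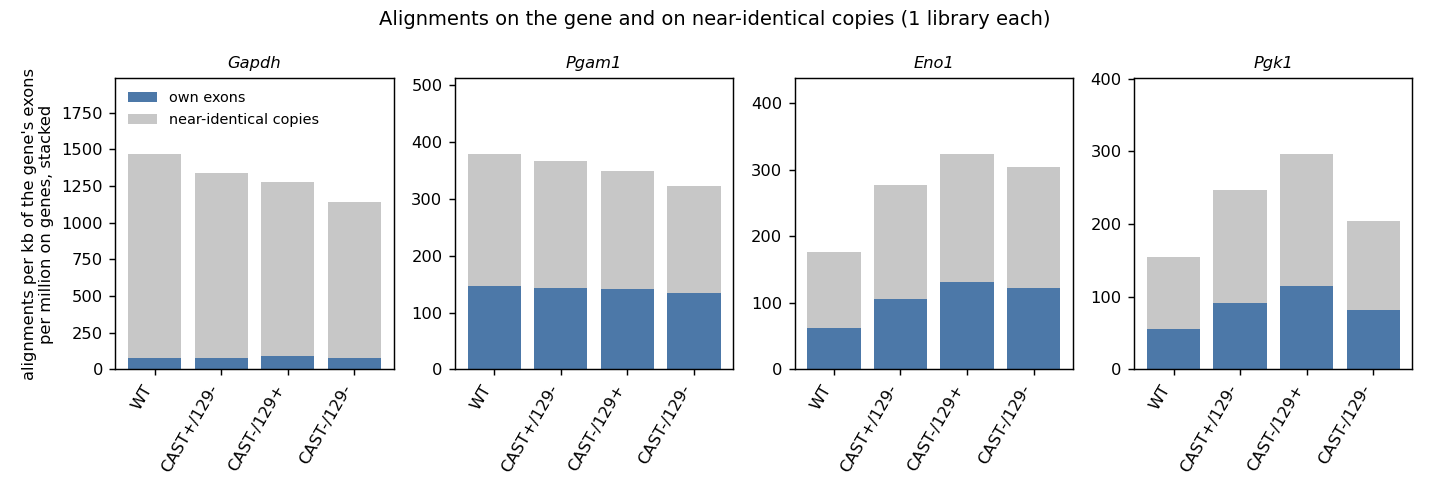
Distinct alignments on the exons of Gapdh, Pgam1, Eno1 and Pgk1 (blue) and on near-identical copies elsewhere in the genome (grey), stacked, per kilobase of the gene's exons and per 1000000 alignments on genes, in the 4 RNA-seq libraries. For Gapdh, 92.7% to 94.9% of the alignments lie on copies and the stacked bars fall from 1469 in WT to 1140 in CAST-/129-, while the bars of Eno1 and Pgk1 are higher in all clones than in WT.

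Lactate dehydrogenase recycles the cofactor that glycolysis uses up, and its isozymes differed. Ldha, the form that favours lactate, was at 92.3 FPKM (90.1 to 94.5) in WT, 171 (167 to 175) in CAST+/129-, 235 (228 to 242) in CAST-/129+ and, in the biallelic clone, 220 (214 to 228). WT was the lowest, and the clones were at 185%, 254% and 239% of it. Ldhb, the heart form, was at 41.5 FPKM (39.5 to 43.6) in WT, 31.01 (28.6 to 33.6) in CAST+/129-, 62.0 (57.1 to 67.2) in CAST-/129+ and, in the biallelic clone, 84.3 (78.5 to 90.5). It was thus below WT in CAST+/129- and above it where the CAST copy of the SE is gone. The share of Ldhb in the summed FPKM was 31.02% in WT, 15.3% in CAST+/129-, 20.9% in CAST-/129+ and 27.7% in CAST-/129-.

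Summed over the 15 enzymes, the level was 834 FPKM in WT, 1159 in CAST+/129-, 1346 in CAST-/129+ and 1269 in CAST-/129-. The clones were at 139%, 161% and 152% of WT. With the copies added, where Gapdh alone makes up 1140 FPKM or more, the sums were at 111%, 116% and 106% of WT. Actb, an abundant gene outside glycolysis, was at 375 FPKM in WT and at 165%, 151% and 167% of it in the clones.

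Among the 14 other hypoxia targets, 7 were above WT in all clones, namely Bnip3, Egln3, P4ha1, Ndrg1, Ankrd37, Higd1a and Adm, and 4 were below WT in all clones, namely Egln1, Vegfa, P4ha2 and Mxi1, against the same 19.0% and 25.2% of all genes. Bnip3 and Higd1a act at mitochondria. Bnip3 (chromosome 7, 146082519 to 146101202, minus strand), a receptor that directs mitochondria to autophagy, was at 1.92 FPKM (1.57 to 2.31) in WT, 25.8 (23.9 to 27.7) in CAST+/129-, 32.1 (29.2 to 35.2) in CAST-/129+ and, in the biallelic clone, 14.3 (12.4 to 16.5). The clones were at 1346%, 1676% and 749% of WT, and the biallelic clone lay between WT and the monoallelic clones. The WT value rests on 108 distinct alignments. Higd1a, a small protein of the respiratory chain, was at 19.1 FPKM in WT and at 26.1, 27.4 and 26.1 in the clones, which did not differ from each other beyond counting error.

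Ankrd37, an ankyrin repeat protein, and Adm, the precursor of the vasodilator adrenomedullin, were the rarest transcripts in WT. Ankrd37 had 26 distinct alignments in WT, 365 in CAST+/129-, 84 in CAST-/129+ and 27 in the biallelic clone. These gave 0.744 FPKM (0.486 to 1.09), 20.8 (18.8 to 23.1), 9.85 (7.86 to 12.2) and 3.29 (2.17 to 4.79). The order was therefore WT, CAST-/129-, CAST-/129+ and CAST+/129-, and no neighbours in it had overlapping intervals. Adm had 6, 54, 14 and 19 distinct alignments, or 0.174, 3.12, 1.66 and 2.34 FPKM. All clones were above WT, at 1794% (773% to 5104%), 955% (345% to 3033%) and 1348% (518% to 4124%) of it, and the clones could not be ordered at this depth except CAST-/129+ below CAST+/129-.

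Vegfa showed the reverse. Vegfa (chromosome 17, 46153942 to 46169326, minus strand), the growth factor that draws blood vessels into tissue short of oxygen, was at 34.4 FPKM (33.3 to 35.5) in WT, 11.03 (10.2 to 11.95) in CAST+/129-, 9.70 (8.54 to 10.97) in CAST-/129+ and, in the biallelic clone, 5.50 (4.62 to 6.50). The clones were at 32.0%, 28.2% and 16.0% of WT, and the biallelic clone was lower than each monoallelic clone, at 49.9% (41.1% to 60.1%) of CAST+/129- and 56.7% (45.7% to 70.0%) of CAST-/129+. By reads the clones were at 30.1%, 29.5% and 18.0% of WT.

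The bases before the start of Tpi1, Bnip3, Ankrd37 and Vegfa, the genes past 3-fold in at least 1 clone, were searched for ACGTG and GCGTG on both strands, the core letters of HIF binding motifs. Ldha is shown too, as the gene with the most matches. Each sequence holds 250 bases of mm9, runs 5′ to 3′ on the strand of the gene and ends at the base before the start used, which is the 5′-most annotated start within 2 kb upstream of the annotated start with the most H3K4me3 alignments. For Ldha, an annotated start at 54096845 lies farther upstream. The positions are chr6:124764315-124764564 (minus strand) for Tpi1, chr7:146101203-146101452 (minus strand) for Bnip3, chr8:47085222-47085471 (minus strand) for Ankrd37, chr17:46169327-46169576 (minus strand) for Vegfa and chr7:54100959-54101208 (plus strand) for Ldha. Capitals mark matches of either motif, where CACGT and CACGC are matches on the other strand.
Tpi1: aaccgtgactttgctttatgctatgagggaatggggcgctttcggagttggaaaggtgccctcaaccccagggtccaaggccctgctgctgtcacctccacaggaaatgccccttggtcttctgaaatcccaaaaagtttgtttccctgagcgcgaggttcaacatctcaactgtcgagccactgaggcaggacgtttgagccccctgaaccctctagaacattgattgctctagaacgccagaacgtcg
Bnip3: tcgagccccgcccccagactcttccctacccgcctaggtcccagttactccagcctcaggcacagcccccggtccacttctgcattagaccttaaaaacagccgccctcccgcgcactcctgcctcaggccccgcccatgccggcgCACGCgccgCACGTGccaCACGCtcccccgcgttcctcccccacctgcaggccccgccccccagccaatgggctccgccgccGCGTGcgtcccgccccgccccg
Ankrd37: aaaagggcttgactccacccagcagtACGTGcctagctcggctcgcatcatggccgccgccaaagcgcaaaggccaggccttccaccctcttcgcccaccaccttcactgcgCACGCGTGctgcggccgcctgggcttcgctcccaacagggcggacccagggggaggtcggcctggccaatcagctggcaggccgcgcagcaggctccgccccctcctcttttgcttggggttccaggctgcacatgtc
Vegfa: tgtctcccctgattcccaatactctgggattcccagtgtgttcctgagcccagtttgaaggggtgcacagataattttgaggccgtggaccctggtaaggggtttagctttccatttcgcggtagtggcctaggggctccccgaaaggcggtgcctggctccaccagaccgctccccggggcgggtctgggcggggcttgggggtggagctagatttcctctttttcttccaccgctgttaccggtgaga
Ldha: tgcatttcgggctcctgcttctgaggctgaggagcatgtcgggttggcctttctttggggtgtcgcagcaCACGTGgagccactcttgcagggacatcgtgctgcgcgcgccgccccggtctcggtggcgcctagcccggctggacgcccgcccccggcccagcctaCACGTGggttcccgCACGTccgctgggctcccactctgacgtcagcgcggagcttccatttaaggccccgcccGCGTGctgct
Bnip3, up in all clones, held 5 matched positions in these 250 bases, Ankrd37 held 3 and Ldha held 6, while Tpi1, also up, and Vegfa, down, held 0. Such matches are descriptions of letters, and a window with 0 says nothing about sites elsewhere at the gene. In the window from 250 bases before to 50 after the start, 24 of the 31 genes (77.4%) held at least 1 match of either motif. These were 11 of 15 enzymes, 12 of 14 other targets and 1 of 2 transporters. The motifs were also common elsewhere. They occurred in 48.9% of 22359 protein-coding promoters and in 67.1% of the 10579 promoters with H3K4me3 of at least 5-fold in F123. ACGTG alone occurred in 16 of the 31 genes (51.6%) against 27.6% of those 10579, and GCGTG alone also in 16 (51.6%) against 55.3%. The E-box CACGTG, which overlaps ACGTG on both strands and is also read by other factors, occurred in 3 of the 31 (9.68%), namely Bnip3, Ldha and Pfkm, against 10.6% of those 10579 promoters.

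Genes of oxygen sensing and collagen hydroxylation split by isoform. Egln1 (PHD2), the main HIF prolyl hydroxylase, was at 26.7 FPKM (25.6 to 27.8) in WT, 16.0 (14.9 to 17.2) in CAST+/129-, 13.9 (12.4 to 15.6) in CAST-/129+ and, in the biallelic clone, 11.9 (10.4 to 13.5). Egln3 (PHD3), an isoform known to be induced by HIFs, was at 2.67 FPKM (2.29 to 3.10), 9.06 (8.06 to 10.1), 11 (9.44 to 12.7) and 4.69 (3.68 to 5.90). Egln1 was thus lower and Egln3 higher than WT in all clones, and Egln3 made up 9.11% of their summed FPKM in WT, 36.1% and 44.2% in the monoallelic clones and 28.3% in CAST-/129-. P4ha1 and P4ha2 are catalytic subunits of the hydroxylase that modifies collagen prolines. P4ha1 was at 15.2, 18.8, 21.6 and 25.8 FPKM and P4ha2 at 10.3, 3.81, 3.53 and 5.34 in the order WT, CAST+/129-, CAST-/129+ and CAST-/129-. P4ha1 made up 59.7% of the pair in WT and 82.8% to 85.9% in the clones. Among fibroblast markers, which include collagen genes, all 9 were also above WT in CAST-/129-, and their part in the higher P4ha1 was not tested.

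Of the remaining targets, Ndrg1, a stress-induced gene, was at 3.796 FPKM in WT and at 10.1, 9.33 and 9.31 in the clones, or 266%, 246% and 245% of WT. Mxi1, an antagonist of Myc, was at 7.45, 4.05, 5.24 and 3.77 FPKM. Ero1l, which forms disulphide bonds in the endoplasmic reticulum, was at 20.2 FPKM in both WT and CAST+/129-, 20.9 in CAST-/129+ and 18.2 in CAST-/129-, and it differed from WT beyond counting error only in CAST-/129-. Pdk1, a kinase that inhibits pyruvate dehydrogenase, was at 28.1 FPKM (27.3 to 28.8) in WT, 35.8 (34.6 to 36.9) in CAST+/129-, 31.2 (29.6 to 32.8) in CAST-/129+ and, in the biallelic clone, 15.3 (14.2 to 16.5). Kdm3a, a histone demethylase, was at 29.7, 42.1, 29.5 and 19.2 FPKM. Both were higher than WT in CAST+/129- and lower in CAST-/129-, as Pfkp was. The biallelic clone stood at 42.8% of CAST+/129- for Pdk1, 45.5% for Kdm3a and 40.8% for Pfkp.

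The biallelic clone did not always lie farthest from WT. It lay between WT and both monoallelic clones, beyond counting error, for 6 genes, namely Slc2a1, Pgk1, Bnip3, Egln3, P4ha2 and Ankrd37. It lay beyond both in the same direction for 2, Vegfa and P4ha1, and neither order held beyond counting error for the other 23. Among all 13818 genes, the first order held for 5.13% and the second for 8.53%. Summed over the 14 other targets, the level was 200.3 FPKM in WT, 247 in CAST+/129-, 227 in CAST-/129+ and 165 in the biallelic clone, so that the sum was above WT in both monoallelic clones and below it in the biallelic clone. The same order held for reads, with 126%, 121% and 89.0% of WT.

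How the medians of both groups move with the way of counting is shown for 10 ways. For the enzymes, the medians lay between 0.28 and 0.69 in all clones. They were lowest in CAST-/129- when all libraries were thinned to the same number of reads and collapsed again, with 0.435, 0.486 and 0.283 in the usual order of clones. The medians of all genes moved the other way. They were -0.033, -0.066 and -0.078 in the main setting, 0.017, 0.044 and 0.024 after thinning, and -0.007, 0.01 and 0.029 by reads. The enzymes were thus nearer to all genes after thinning. For the other targets in CAST-/129-, the median was 0.13 over 14 genes and -0.12 over the 13 genes with a mean of at least 5 FPKM, which leaves out Adm.

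**Figure D4:**
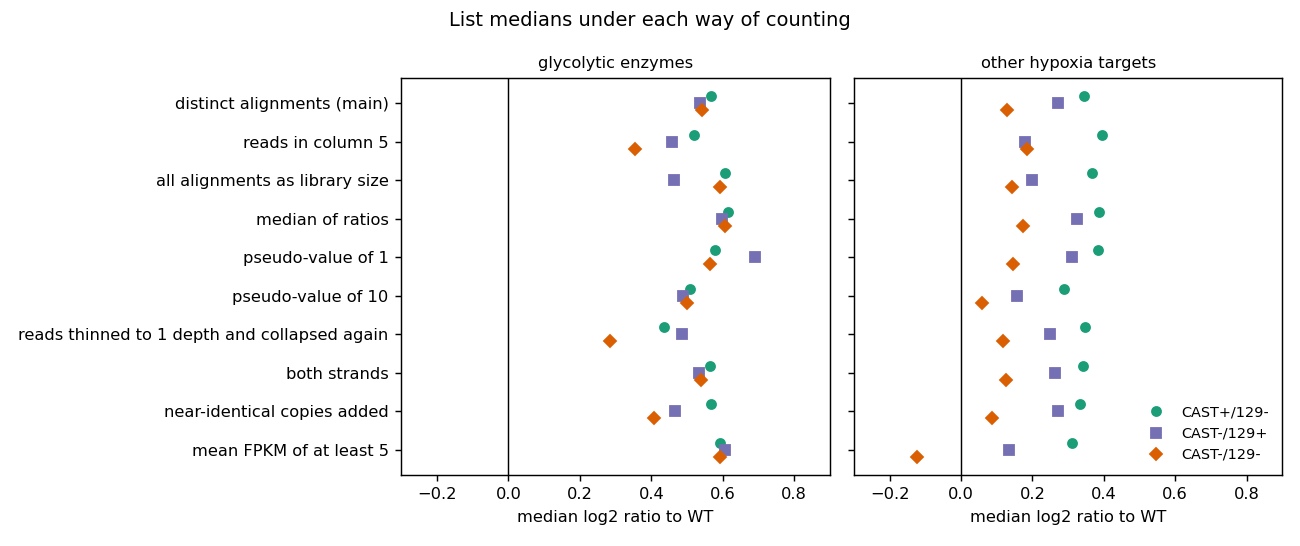
Median log2 ratio to WT of the 15 glycolytic enzymes (left) and the 14 other hypoxia targets (right) in the 3 deletion clones under 10 ways of counting, where each point is the median of 1 library and there are no error bars. All medians of the enzymes lie above 0, between 0.28 and 0.69, and 1 median of the other targets, in CAST-/129- for genes with a mean of at least 5 FPKM, lies below 0.

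Other genes of the same pathways were read from lists set by name, also with earlier results of these data known. Of 18 other glycolytic isozymes and regulators found, 4, 6 and 8 were above WT and 7, 3 and 3 below in CAST+/129-, CAST-/129+ and CAST-/129-. Among all genes, 34.8%, 30.9% and 31.1% were above and 39.9%, 40.2% and 41.7% below. Slc16a3, the lactate exporter MCT4, was the only one of them up by 3-fold in CAST-/129-, with 1.13 FPKM in WT and 14.1, 20.2 and 16.4 in the clones. Pgam2, the muscle mutase, was the lowest relative to WT, with 16.0 FPKM in WT and 2.76, 6.46 and 4.89 in the clones. Pkm2, the pyruvate kinase gene, which carries out the last step of glycolysis and is named here after its values were seen, was at 258 FPKM in WT and at 440, 520 and 528 in the clones. Gluconeogenesis runs the pathway backwards. Of its 6 genes, 0 were above WT beyond counting error in any clone, 4, 4 and 3 were below, and 2, 2 and 3 were within counting error. Fbp2, fructose bisphosphatase, and Pck2, the mitochondrial PEP carboxykinase, were down by 3-fold in all clones. Among all genes, 0.695%, 0.753% and 1.17% were down by 3-fold in the same order of clones. Fbp2 was at 33.8 FPKM in WT and 4.59, 2.73 and 4.39 in the clones, and Pck2 at 40.0, 9.85, 4.64 and 4.83. Pck1, the cytosolic form, had 0, 2, 0 and 2 distinct alignments and was at or near 0 throughout.

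Of the 27 genes of pyruvate oxidation and the citrate cycle, 0 were past 3-fold in any clone. Few of all genes were so either, with 0.731%, 1.08% and 1.85% up and 0.695%, 0.753% and 1.17% down in the usual order of clones. The medians of the 27 genes were 0.02, -0.04 and -0.01 on the log2 scale. Idh2, the mitochondrial isocitrate dehydrogenase that uses NADP, was the lowest of them relative to WT in CAST-/129-, with 87.6, 69.1, 65.3 and 41.3 FPKM in the order WT, CAST+/129-, CAST-/129+ and CAST-/129-. Mdh2, the mitochondrial malate dehydrogenase, was the highest, with 111, 146, 158 and 152 FPKM. The medians of the 7 pentose phosphate genes were 0.25, 0.07 and 0.14. Relative to WT in CAST-/129-, their lowest was Rpe, an epimerase of pentose phosphates, with 32.0, 24.7, 21.5 and 21.4 FPKM, and their highest Pgd, phosphogluconate dehydrogenase, with 23.4, 29.5, 35.2 and 30.4 FPKM. The 13 genes of oxygen sensing and HIF subunits had medians of 0.01, 0.08 and -0.04. Among these, Epas1, a HIF alpha subunit, was the lowest relative to WT in CAST-/129-, with 45.3, 33.4, 27.1 and 13.5 FPKM in the order WT, CAST+/129-, CAST-/129+ and CAST-/129-. Hif3a was the highest relative to WT there, with 0.844, 2.25, 3.09 and 5.71 FPKM. These values are mRNA levels, and HIF proteins are regulated mainly by their breakdown.

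Of 28 further hypoxia targets, 15, 12 and 14 were above WT and 10, 7 and 8 below in the same order of clones, against 34.8%, 30.9% and 31.1% above and 39.9%, 40.2% and 41.7% below among all genes. Lox and Loxl2, which crosslink collagen, were at 1.24, 18.9, 8.34 and 65.8 FPKM and at 1.66, 9.08, 8.52 and 24.1 FPKM. Both were up by 3-fold in CAST-/129-, where the 9 fibroblast markers were highest. Lox was also up by 3-fold in CAST+/129- and not in CAST-/129+, whereas the summed fibroblast markers were at 69.7 and 72.0 FPKM there. The part of such cells was not tested. Ak4, a mitochondrial adenylate kinase, was down by 3-fold in CAST-/129-. It was at 39.2, 20.5, 10.9 and 4.04 FPKM in the order WT, CAST+/129-, CAST-/129+ and CAST-/129-. Among all genes, 1.85% were up and 1.17% down by 3-fold in CAST-/129-.

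In cells without a deletion, most of the 31 promoters carried both marks. Alignments were counted within 2 kb on each side of the annotated start with the most H3K4me3 alignments in F123, chosen in the same way for all promoters, and divided by the mean density of the genome in the same library. H3K4me3 in F123 was at least 5-fold at 27 of the 31 promoters (87.1%), against 47.3% of 22359 protein-coding promoters. H3K27ac in F123 was so at 20 (64.5%), against 28.1%. These 22359 were not matched for expression, whereas all 31 genes had a mean of at least 1 FPKM. The enzymes had a median H3K27ac of 14.2-fold and the other targets of 3.85-fold. Hk2 was the highest in H3K27ac, at 71.8-fold (61.6 to 83.2), with H3K4me3 at 25.6-fold. It was followed by Gapdh at 50.3-fold and Aldoa at 26.4-fold. Bnip3, Ankrd37, Egln3 and Adm, scarce in WT and higher in the clones, had less H3K27ac in F123, from 7, 3, 3 and 2 alignments. Bnip3 was at 2.84-fold (1.14 to 5.85), Ankrd37 and Egln3 at 1.22-fold and Adm at 0.811-fold, the last from 2 alignments, while H3K4me3 at these promoters was between 4.32-fold and 6.75-fold. Low H3K27ac was not particular to these genes. P4ha2, below WT in all clones, was the lowest, at 0.406-fold from 1 alignment. Tpi1, at 35.0 FPKM in WT, had the same value as Bnip3, and P4ha1 and Ndrg1 were at 2.03-fold.

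**Figure D5:**
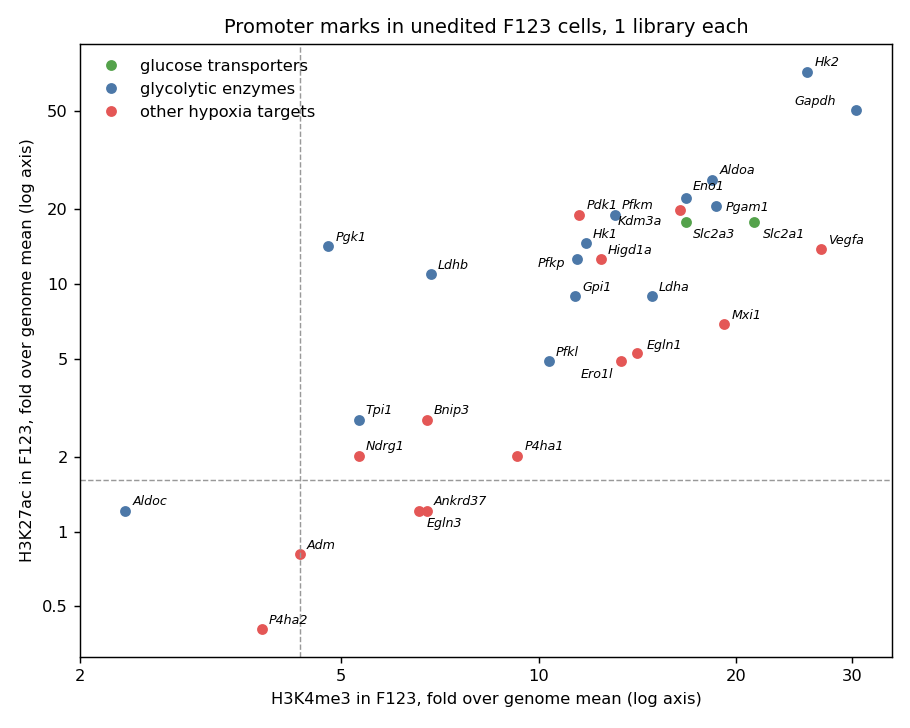
H3K4me3 (x axis) and H3K27ac (y axis) at the promoters of the 31 genes in F123 cells without a deletion, as fold over the genome mean of each library on log axes, with 1 library per mark. Dashed lines are the medians of 22359 protein-coding promoters, at 4.32-fold and 1.62-fold. Hk2 and Gapdh lie highest in H3K27ac, and P4ha2, Adm, Aldoc, Egln3 and Ankrd37 lie below the H3K27ac median.

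Vegfa and Tpi1, which moved in opposite directions in the clones, differed in their marks in F123. Vegfa had H3K4me3 of 26.9-fold (23.9 to 30.1) and H3K27ac of 13.8-fold, and Tpi1 had 5.31-fold (4.04 to 6.85) and 2.84-fold. In J1, H3K27ac was at 7.35-fold (5.90 to 9.05) at Vegfa and 8.10-fold (6.57 to 9.87) at Tpi1, with intervals that overlap. H3K27ac in J1 was at least 5-fold at all 15 enzyme promoters, including Aldoc at 5.37-fold, and at 9 of the 14 other targets. Of the 22359 protein-coding promoters, which were not matched for expression, 22.7% were so in J1. Adm was the lowest in J1, at 1.40-fold (0.818 to 2.25). Bnip3 and Ankrd37, low in F123, were at 9.75-fold and 7.76-fold in J1, and Egln3 was at 3.39-fold. The J1 library held 7741713 distinct alignments on chromosomes and the F123 library 1576574, so that a low fold rests on few alignments in F123, and levels were not compared between the lines.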

How the data were processed

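RNA-seq was performed on polyA+ RNA of 4 F123 clones and ChIP-seq on F123 and J1 cells, 7 libraries in all with 1 for each condition, so that no test of a difference was possible. Strand-specific RNA-seq reads were mapped to mm9 with Novoalign and USeq by the authors, and the submitters' processing notes name Bowtie for ChIP-seq. Versions were not given in the sources used here. The deposited files list aligned segments, with identical alignments collapsed to 1 line and a count of their reads in column 5. How reads with several equally good positions were placed was not given in the sources used here. Alleles were not told apart.

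Distinct alignments were counted on the transcript strand, opposite to the line strand, by their midpoint in exonic bases of 1 gene of that strand in GENCODE M1, over 31498 genes with at least 200 such bases. Counts on genes were between 5847451 and 24891864 per library, the deepest being WT, with 2.61 reads per distinct alignment on genes and 1.48 in CAST-/129-. Collapsing thus limits abundant genes most in WT. A pseudo-value of 4 FPKM and a 3-fold threshold were used, as in the methods of the paper. Levels have exact 95% Poisson intervals and ratios exact binomial intervals, which cover counting error only. A floor of 3 counts on 1 kb of exons is 0.121 FPKM in WT and 0.513 in CAST-/129-. The exact interval of a count of 0 reaches above this floor.

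Near-identical copies were found with BLAST 2.17.0 in the mm9 genome, at least 200 bp long, of at least 95% identity and with at least 100 bp of coding sequence. ChIP-seq alignments were counted by their 5′ end within 2 kb of the start, with no input. The labels and the methods of the paper name different antibodies for H3K4me3. For H3K27ac in F123, 20.5% of distinct alignments were seen in a single read, against 82.4% for H3K4me3. Of several annotated starts, the one with the most H3K4me3 alignments was used, and sequences were read from the NCBIM37 genome at the 5′-most annotated start within 2 kb upstream of it.

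All 31 genes are named, and genes of other lists where they passed 3-fold in CAST-/129- or were the highest or lowest of their list, except that a further hypoxia target is not reported here. The members and lists were chosen with earlier results of these data known. Tigar and Tfap2c were not found by these names. Alternatives changed the unit, library size, pseudo-value, strand, depth, threshold, low-value filter and the treatment of copies. The 3-fold calls and the intervals of ratios were tried on simulated counts with counting error only. The assignment of alignments to genes and the collapsing of reads were not part of that simulation. The tools were pysam 0.24.0, samtools 1.23.1, scipy 1.17.1, pandas 2.3.3, numpy 2.4.6, matplotlib 3.10.9 and Python 3.11.15.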

Additional observations from a re-analysis of the deposited data

Results flagged for a closer look

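For 5 genes the clones lay on opposite sides of WT, each beyond counting error, and the difference between clones was not tested because each has 1 library. The share of all genes with such a pattern was not counted, so 5 cannot be called many or few. Of all 13818 genes, only 3500, 4003 and 3753 lay within counting error of WT in CAST+/129-, CAST-/129+ and CAST-/129-. Slc2a3 was at 138.8% of WT in CAST-/129+ but at 76.55% in CAST+/129- and 66.93% in CAST-/129-. Pfkp was at 161.9% in CAST+/129- and 65.99% in CAST-/129-. Ldhb was at 149.5% in CAST-/129+ and 203.1% in CAST-/129- but at 74.73% in CAST+/129-. Pdk1 was at 127.4% in CAST+/129- and 111.2% in CAST-/129+ but at 54.54% in CAST-/129-. Kdm3a was at 141.8% in CAST+/129- and 64.53% in CAST-/129-. These sides were the same by reads before collapsing, where Slc2a3 was at 125%, 61.4% and 55.2%, Pfkp at 162% and 48.7%, Ldhb at 144%, 231% and 66.0%, Pdk1 at 128%, 106% and 51.7%, and Kdm3a at 147% and 66.0% in the same order.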

How the results depend on the processing

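Of 93 ratios to WT, 87 to 93 kept their sign under each of 8 other ways of counting. Gapdh in all clones changed sign with copies added (log2 -0.14, -0.20 and -0.36 in place of 0.11, 0.32 and 0.10), and Pfkp in CAST-/129+ by reads or after thinning. The others that changed sign, in Pgam1, Ero1l, Kdm3a and Gapdh, were within 0.12 of 0 in distinct alignments. The median of the enzymes in CAST+/129- was 0.518 by reads, 0.614 with the median of ratios as library size, 0.508 with a pseudo-value of 10 and 0.435 after thinning. In CAST-/129+ it was 0.689 with a pseudo-value of 1. In CAST-/129- it was 0.355 by reads, 0.283 after thinning and 0.408 with copies. The median of the other targets was 0.156 with a pseudo-value of 10 and 0.135 with a mean of at least 5 FPKM in CAST-/129+, and -0.123 with the latter in CAST-/129-. Genes up 3-fold in CAST+/129- numbered 4 by reads and with a pseudo-value of 1, 1 with a pseudo-value of 10 and 5 at 2-fold. Among all 13818 genes, 101 were up there in the main setting. This number was 95 by reads, 285 with a pseudo-value of 1, 50 with a pseudo-value of 10 and 285 at 2-fold. In CAST-/129+ the members up numbered 4 with a pseudo-value of 1 and 8 at 2-fold, where all genes up numbered 414 and 384, against 149 in the main setting. In CAST-/129- the members up numbered 1 by reads, with all alignments as library size, with both strands and with a pseudo-value of 10, and 4 at 2-fold. All genes up there numbered 261, 209, 247, 120 and 629 in the same order of settings, against 256 in the main setting. Members down numbered 1 at 2-fold in CAST+/129-, 1 with a pseudo-value of 1 and at 2-fold in CAST-/129+, and 0 with a pseudo-value of 10 in CAST-/129-. All genes down numbered 401 at 2-fold in CAST+/129-. They numbered 378 with a pseudo-value of 1 and 481 at 2-fold in CAST-/129+, and 50 with a pseudo-value of 10 in CAST-/129-. The cause was not tested. No paired analysis was possible because each condition has 1 library. Depth limits Adm and Ankrd37 most, with 6 and 26 alignments in WT.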
